A study of Pongo abelii with 6 samples.

Results

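LIN28B, the microRNA-processing genes DROSHA, DICER1 and AGO2, the RNA-binding protein gene HNRNPA1 and the let-7 targets HMGA1 and HMGA2 were followed through induced pluripotent stem cells of the orangutan. The 7 genes were taken by symbol from 15205 genes that could be given a symbol, all 7 were found, and all 7 passed the filter on low values. Total RNA depleted of ribosomal RNA was sequenced from 6 libraries of Pongo abelii, 3 of the line Dokana and 3 of the line Djasinga. Induced pluripotent stem cells are body cells reprogrammed to a state that resembles the early embryo. Both lines were grown on a matrigel coating in StemMACS iPS-Brew medium with 1 uM IWR1 and 0.5 uM CHIR. The 3 libraries of a line come from 3 sequential passages of its culture, so SDs and p-values cover the spread between passages of 1 line and not the spread between animals. Age, sex and donor tissue of the lines are not among the labels used here. The labels also call the treatment differentiated and the genotype small RNA, while titles and protocols describe pluripotent cells and total RNA.

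The let-7 family of microRNAs lowers the messenger RNAs of genes that keep cells in an early state. LIN28 proteins hold let-7 back by binding its precursors, and HNRNPA1 binds a primary let-7 transcript in human cells and lowers its processing. DROSHA cuts primary microRNA transcripts in the nucleus, DICER1 cuts the exported precursors in the cytoplasm, and AGO2 carries the mature microRNA and can slice its target. HMGA1 and HMGA2 are small proteins that bind the minor groove of AT-rich DNA and shape chromatin, and HMGA2 is among the best-known let-7 targets. The let-7 microRNAs themselves were not analysed here. LIN28A, the relative of LIN28B, had no transcript paired with its symbol and was not analysed here.

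The deposited values are TPM, a length-corrected share of a library's transcripts, so levels of different transcripts can be compared, but the read depth is unknown. One assembled transcript without a symbol held 16.9% to 28.2% of the TPM in Dokana and 26.7% to 42.4% in Djasinga. These ranges overlap, and a larger share of it leaves less TPM for all other transcripts of that library. The median of the 6255 genes tested was lower in Djasinga, by -0.29 on the log2(TPM + 1) scale. With that transcript left out and the rest rescaled, the median of the 6877 genes then tested was -0.07. The cause of the shift was not tested. Levels are therefore also given after median-ratio scaling, which divides a library by the median ratio of its genes to their geometric mean. The factors were 0.984 to 1.34 in Dokana and 0.851 to 0.942 in Djasinga. Assembled transcripts without a symbol held 71.7% to 81.2% of each library, and some may belong to the genes described here. Only 50.6% of the RefSeq accessions were given a symbol, and unnamed ones may belong to these genes too. HNRNPA2B1, a gene that most cells use, was listed at 0 in all 6 libraries, so a sum over named transcripts can be partial. Djasinga replicate 3 stood apart on the first principal component of the scaled gene levels (score 40.04, the other libraries between -17.4 and -0.0591).

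Both lines carried core pluripotency markers, with markers of other cell types low apart from THY1. The 5 core pluripotency markers paired with a symbol, among them NANOG and SOX2, summed to 228 to 303 TPM in Dokana and 167 to 190 TPM in Djasinga. The 5 paired naive markers summed to 1.51 to 2.17 and 1.57 to 3.37 TPM, and the 5 trophoblast markers to at most 0.150 TPM. The 4 neural markers reached 5.03 and 4.90 TPM, and the 9 mesoderm and endoderm markers 5.31 and 4.20 TPM. The 7 fibroblast markers summed to 62.2 to 82.5 TPM in Dokana and 37.0 to 68.2 TPM in Djasinga, mostly THY1, which primed pluripotent cells also carry. Among them COL3A1, DCN and LUM had line means of at most 0.0367 TPM, and PDGFRA had means of 0.271 TPM in Dokana and 0.260 TPM in Djasinga. TWIST2 and COL1A2 were higher, with means of 5.66 and 3.02 TPM in Dokana and 3.35 and 3.21 TPM in Djasinga. The core marker sum did not overlap between the lines and was lower in Djasinga, as the median gene was; its part in the results that follow was not tested. In bulk RNA, fewer cells of a type and less RNA per cell cannot be told apart.

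The 7 genes spanned a wide range of levels, with the same pair at the top in every library. These levels are sums over named transcripts only, from 1 of 8 reference accessions for AGO2 to 5 of 8 for HMGA2. The part left out may differ between genes, so the order holds for the named sums. HNRNPA1 stood first, and its lowest value of 331 TPM lay above the highest value of HMGA1, 172 TPM. HMGA1 stood second, and its lowest value of 111 TPM lay above the highest value of any of the other 5 genes, 30.5 TPM for DICER1. DICER1, LIN28B, AGO2 and HMGA2 followed with overlapping ranges, and their order changed from library to library. DICER1 was above LIN28B in all 3 Dokana libraries and in Djasinga replicate 1, and LIN28B was above DICER1 in Djasinga replicates 2 and 3. DROSHA had the lowest level in 5 of the 6 libraries, and HMGA2 had it in Djasinga replicate 1. On mean level HNRNPA1 and HMGA1 stood at percentiles 99.5 and 98.1 of the genes tested, LIN28B at 82.3 and DROSHA at 69.1.

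**Figure D1:**
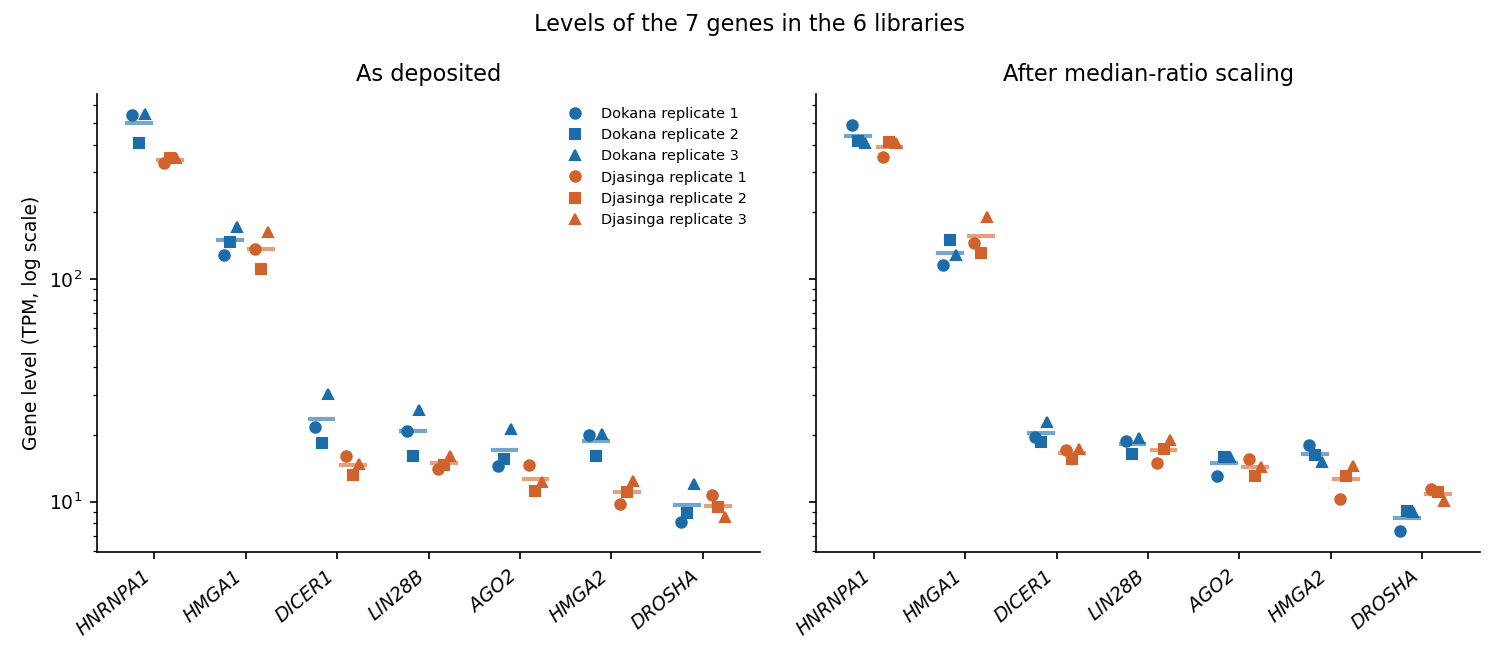
Levels of the 7 genes in TPM on a log axis, as deposited (left) and after median-ratio scaling (right); each point is a library, the marker shape is its replicate number, and short lines are the means of the 3 libraries of a line. As deposited, Dokana replicate 3 has the highest value of all 7 genes, and HNRNPA1 and HMGA1 are on top in both panels. After scaling the line means lie closer for LIN28B, HNRNPA1, DICER1, AGO2 and HMGA2 and farther apart for DROSHA and HMGA1.

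LIN28B had levels of 20.7, 16.0 and 25.7 TPM in replicates 1, 2 and 3 of Dokana against 14.1, 14.6 and 16.1 TPM in those of Djasinga, and the same order of replicates is kept for all genes below. The lines overlapped narrowly, since Djasinga replicate 3 lay above Dokana replicate 2. The log2 difference, Djasinga minus Dokana, was -0.43 (SE 0.21, 95% confidence interval -0.92 to 0.06, limma adjusted p 0.350), close to that of the median gene. After scaling, LIN28B was one of the steadier genes, with 18.1 ± 1.56 TPM in Dokana and 16.97 ± 1.97 TPM in Djasinga (SD, n = 3) and a coefficient of variation of 9.70% over the 6 libraries, at percentile 10.97 of the genes tested. The scaled log2 difference was -0.09 (95% confidence interval -0.40 to 0.23, limma adjusted p 0.965). The percentile of the coefficient of variation covers genes of all levels and was not matched for level. XPO5, AGO1 and RAN of the same pathway stood lower, at percentiles 2.27, 6.22 and 4.11.

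HNRNPA1, the binder of a primary let-7 transcript, was at 545, 409 and 547 TPM in Dokana against 331, 349 and 347 TPM in Djasinga. Every Djasinga library lay below every Dokana library, with SDs of 79.2 TPM in Dokana and 9.97 TPM in Djasinga as deposited and of 46.6 and 32.8 TPM after scaling. The log2 difference was -0.53 (SE 0.18, limma adjusted p 0.324), and after scaling it was -0.17 (SE 0.13, limma adjusted p 0.920) with overlapping lines. HNRNPA1 has many near-identical processed copies in the human genome, and reads could be split among such copies, so its level is uncertain. KHSRP, another RNA-binding protein that acts on let-7 precursors, was at 38.5 ± 10.1 TPM in Dokana and 29.0 ± 5.58 TPM in Djasinga (SD, n = 3). TUT4, which adds uridines to let-7 precursors held by LIN28 proteins, was at 3.73 ± 2.23 and 3.38 ± 0.332 TPM. Its relative TUT7 was at 1.00 ± 0.237 and 0.714 ± 0.662 TPM and did not pass the filter. DIS3L2, which degrades the uridylated precursors, and TRIM71, a further let-7 target that binds RNA, had no transcript paired with their symbol.

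DROSHA, the nuclear enzyme, had nearly equal deposited means in the lines, 9.71 ± 2.06 TPM in Dokana and 9.59 ± 1.09 TPM in Djasinga (SD, n = 3). It was at 8.14, 8.93 and 12.04 TPM in Dokana against 10.7, 9.44 and 8.58 TPM in Djasinga, with overlapping lines. As deposited the log2 difference was -0.0039 (SE 0.20, limma adjusted p 0.990), while the median gene was at -0.29. After scaling DROSHA was at 7.36, 9.08 and 9.0 TPM in Dokana against 11.4, 11.1 and 10.03 TPM in Djasinga, where every Djasinga library lay above every Dokana library. The scaled log2 difference was 0.32 (SE 0.12, 95% confidence interval 0.02 to 0.63, unadjusted limma p 0.0401), and it did not pass the threshold over all genes (limma adjusted p 0.640). Its partner DGCR8 had no transcript paired with its symbol. SRRT, which links capped primary transcripts to the Drosha complex, was at 2.93 ± 0.658 and 2.69 ± 0.993 TPM (SD, n = 3).

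DICER1 was at 21.5, 18.2 and 30.5 TPM in Dokana against 16.0, 13.2 and 14.8 TPM in Djasinga. All Djasinga libraries lay below all Dokana libraries, also after scaling. The log2 difference was -0.61 (SE 0.22, 95% confidence interval -1.14 to -0.09, limma adjusted p 0.326), and after scaling it was -0.27 (SE 0.12, limma adjusted p 0.728). XPO5, the exporter that brings precursors to DICER1, was at 23.3 ± 4.69 and 17.5 ± 0.909 TPM. RAN, the GTPase that drives this export and much other nuclear transport, was at 182 ± 33.5 and 130 ± 5.14 TPM. The DICER1 cofactors TARBP2 and PRKRA had no transcript paired with their symbol.

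AGO2 was at 14.4, 15.6 and 21.2 TPM in Dokana against 14.6, 11.1 and 12.2 TPM in Djasinga, and the lines overlapped. Its log2 difference was -0.39 (SE 0.21, limma adjusted p 0.366), and -0.05 after scaling (limma adjusted p 0.980). AGO2 was the steadiest of the 7 genes after scaling, with a coefficient of variation of 9.15% (percentile 9.10 of the genes tested). AGO1, a relative that slices poorly in human cells, was at 20.6 ± 3.13 and 14.1 ± 1.07 TPM, a level like that of AGO2. The log2 difference of AGO1 was -0.51 (SE 0.18, limma adjusted p 0.326), and -0.17 after scaling (limma adjusted p 0.856). AGO3 and AGO4 had no transcript paired with their symbol. Of the GW182 proteins, which link argonautes to mRNA decay, TNRC6B was the highest at 5.50 ± 1.16 and 4.23 ± 0.728 TPM. TNRC6A was at 1.98 ± 0.917 and 1.57 ± 0.151 TPM and TNRC6C at 0.944 ± 0.306 and 0.175 ± 0.0825 TPM, the latter without a test because it failed the filter.

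HMGA2 was at 19.9, 16.0 and 20.1 TPM in Dokana against 9.73, 11.05 and 12.4 TPM in Djasinga. The lines did not overlap, as deposited or after scaling. Of the 7 genes it had the lowest unadjusted p, with a log2 difference of -0.70 (SE 0.18, 95% confidence interval -1.13 to -0.27, unadjusted limma p 0.0061), at percentile 7.90 of all differences. It did not pass the threshold over all genes (limma adjusted p 0.283), and after scaling the difference was -0.36 (SE 0.15, limma adjusted p 0.686).

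HMGA1 was at 128, 146 and 172 TPM in Dokana against 136, 111 and 163 TPM in Djasinga. The lines overlapped, and the log2 difference was -0.13 (SE 0.21, limma adjusted p 0.707) as deposited and 0.23 (SE 0.18, limma adjusted p 0.918) after scaling, a change of sign. Scaled HMGA1 was highest in Djasinga replicate 3, at 190 TPM, against 116 to 149 TPM in the other 5 libraries. Without that library the scaled log2 difference was 0.08 (limma adjusted p 0.930). HMGA1 also has near-identical processed copies in the human genome, so reads could have been split.

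Taking the 7 genes as a list, 0 passed the adjusted threshold between the lines (limma), beside 0.352% of all genes tested, and 3 had an unadjusted p under 0.05, all lower in Djasinga. Over all genes 13.9% had an unadjusted p under 0.05 and were lower in Djasinga, and 0.895% were higher. The libraries of the lines did not overlap for HNRNPA1, DICER1 and HMGA2, all lower in Djasinga, where 24.5% of all genes showed the same and 1.18% lay higher without overlap. After scaling they did not overlap for DICER1, HMGA2 and DROSHA, beside 13.3% of all genes, 7.1% lower and 6.19% higher in Djasinga. On the scaled values 1 of the 7, DROSHA, had an unadjusted p under 0.05 (limma), beside 7.26% of all genes, and 0 passed the adjusted threshold, beside 0.32%. The median log2 difference of the 7 genes was -0.43 as deposited and -0.09 after scaling, beside -0.29 and -0.0032 for all genes tested. In all, 22 genes passed the threshold, 11 higher and 11 lower. With the replicate number as a block 5 genes passed, 4 higher and 1 lower, and still 0 of the 7. Leaving out Dokana replicate 1, 2 or 3 gave counts of 12, 9 and 7, and leaving out Djasinga replicate 1, 2 or 3 gave 10, 23 and 7.

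Ratios of a pair of genes within a library do not depend on how that library was scaled. They compare sums of named transcripts, so they are not ratios of the full RNA of 2 genes. HMGA1 to HMGA2 was 6.43, 9.17 and 8.53 in Dokana and 13.98, 10.05 and 13.1 in Djasinga, so all Djasinga libraries lay above all Dokana libraries. The mean log2 ratio differed by 0.62, a 1.54-fold higher ratio in Djasinga. DICER1 to DROSHA went the other way, with 2.64, 2.04 and 2.53 in Dokana and 1.49, 1.39 and 1.73 in Djasinga, again without overlap. Here the mean log2 ratio differed by -0.64, so the ratio in Djasinga was 0.640 of that in Dokana. LIN28B to HMGA2 was 1.04, 1.01 and 1.28 in Dokana and 1.44, 1.32 and 1.30 in Djasinga, which do not overlap either but lie close at 1.28 and 1.30. For each of these 3 ratios the two-sided exact permutation test gave p 0.1, the smallest that 3 against 3 libraries allow, and 0.2 after Benjamini-Hochberg adjustment over the 6 ratios compared. Of all pairs of tested genes above 0 in every library, 13.4% had ratios that did not overlap between the lines.

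The other ratios moved little. HNRNPA1 to LIN28B was 26.3, 25.5 and 21.2 in Dokana and 23.6, 23.9 and 21.5 in Djasinga, so about the same excess of HNRNPA1 was found in every library. Over the 6 libraries the SD of this log2 ratio was 0.12, at percentile 1.21 of all gene pairs, whose median was 0.47. Those pairs join genes of all levels and were not matched for level. It was also the lowest SD of the 21 pairs among the 7 genes, whose median was 0.25. LIN28B to DICER1 stayed near 1, at 0.961, 0.879 and 0.843 in Dokana and 0.876, 1.11 and 1.09 in Djasinga. AGO2 to DICER1 was 0.668, 0.853 and 0.695 in Dokana and 0.912, 0.844 and 0.824 in Djasinga. The exact permutation p was 0.6 for HNRNPA1 to LIN28B and 0.3 for LIN28B to DICER1 and for AGO2 to DICER1. The log2 ratio differences were -0.08, 0.19 and 0.23, and a test with a smallest p of 0.1 does not show that the lines are alike. Of the 21 pairs that the 7 genes form, which share genes and are not independent, 8 (38.1%) did not overlap between the lines. The share was 13.4% over all pairs of tested genes above 0 in every library. DROSHA or HMGA2 was in 7 of the 8, but by construction many of the 21 pairs hold DROSHA or HMGA2.

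**Figure D2:**
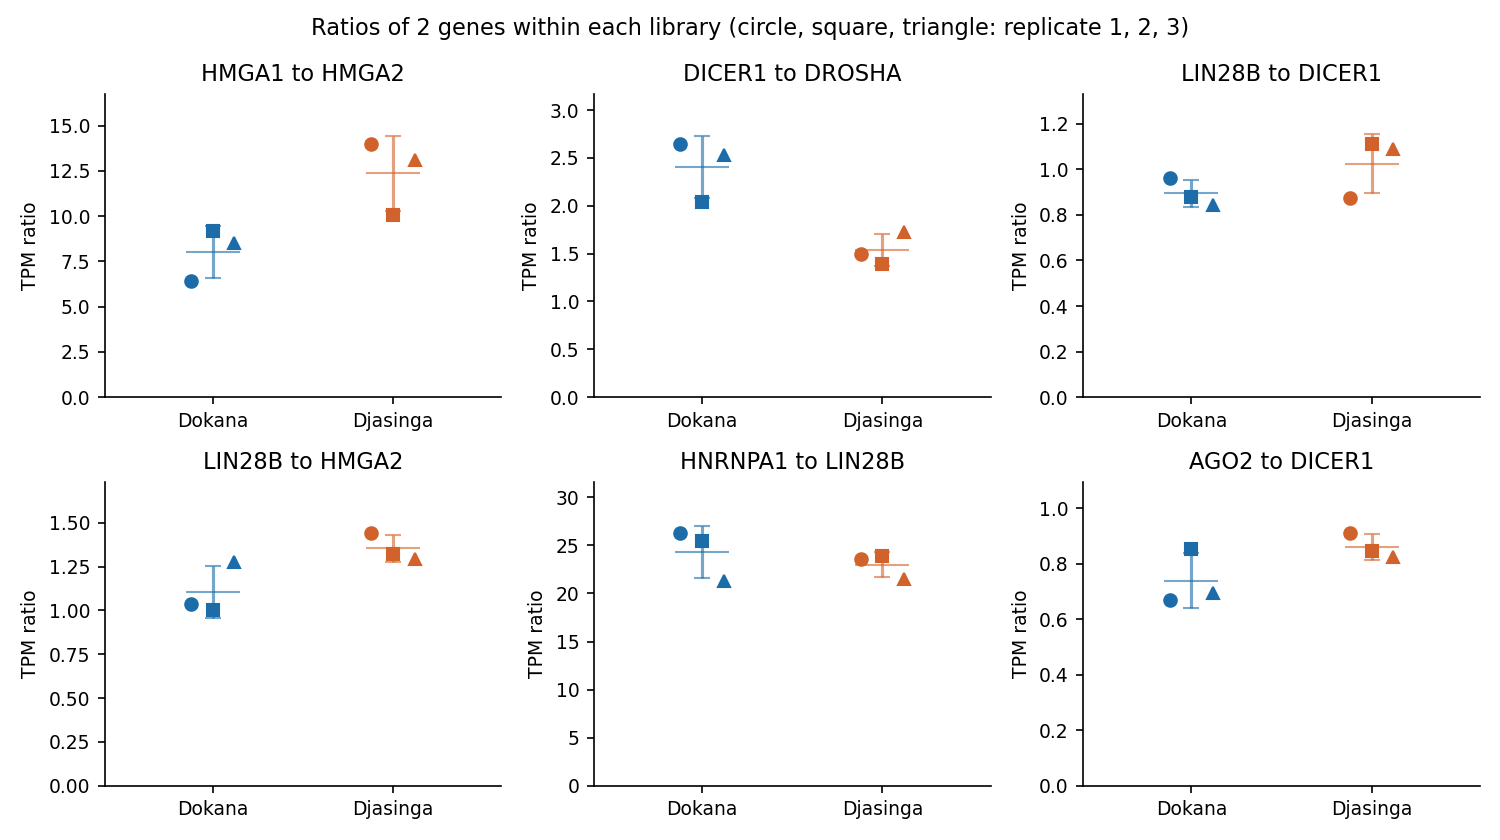
TPM ratios of 2 genes within each library, with Dokana in blue and Djasinga in orange; points are libraries, bars are the mean and SD of 3, and each vertical axis starts at 0. HMGA1 to HMGA2 lies at 6.43 to 9.17 in Dokana and 10.05 to 13.98 in Djasinga, DICER1 to DROSHA at 2.04 to 2.64 and 1.39 to 1.73, and HNRNPA1 to LIN28B at 21.2 to 26.3 in both lines together.

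In HMGA1, HMGA2 and DICER1 the leading transcript held most of the named RNA in every library, which was not so in LIN28B and DROSHA. The table held 18 transcripts of the 7 genes, of 54 RefSeq accessions for them in the reference, and 17 passed the filter. The leading HMGA1 transcript held 77.9% to 87.1% of the gene's named TPM, and the leading HMGA2 transcript 65.7% to 82.1%. The leading DICER1 transcript held 67.9% to 88.3%. HNRNPA1 and AGO2 each had 1 named transcript, so its share was fixed by the pairing. The fifth HMGA2 transcript was listed at 0 in all 6 libraries.

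LIN28B was divided among 3 transcripts in shares that changed between libraries. The leading one, XM_024249176.1, held 51.9%, 84.9% and 69.9% in Dokana and 61.1%, 37.5% and 50.2% in Djasinga. The next one, XM_024249174.1, held 26.8%, 11.7% and 21.3% in Dokana and 30.9%, 51.5% and 31.1% in Djasinga, where it was the larger of the pair in replicate 2. In deposited TPM the leading transcript was at 10.7, 13.6 and 18.0 in Dokana and at 8.58, 5.49 and 8.08 in Djasinga, without overlap (log2 difference -0.84, SE 0.26, limma adjusted p 0.227). After scaling its difference was -0.52 (limma adjusted p 0.519). The median of all transcripts tested was -0.27 as deposited. The second transcript was at 5.55, 1.88 and 5.48 TPM in Dokana against 4.34, 7.53 and 5.01 TPM in Djasinga, with overlap (log2 difference 0.39, SE 0.36, limma adjusted p 0.563). Its scaled difference was 0.69 (limma adjusted p 0.636). When each gene was represented by its leading transcript alone, the 3 ratios with LIN28B changed sign. The log2 difference was then -0.10 for LIN28B to HMGA2, -0.23 for LIN28B to DICER1 and 0.40 for HNRNPA1 to LIN28B. DICER1 to DROSHA kept its sign at -0.77, but its lines then overlapped (exact permutation p 0.2). HMGA1 to HMGA2 was at 0.67 (exact permutation p 0.1). Transcripts of 1 gene share sequence, and the way reads were divided among them is not stated in any source used here.

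The 3 named DROSHA transcripts held 33.0% to 61.8%, 27.0% to 45.5% and 6.71% to 27.5% of the gene's named TPM, with no line set apart. The leading HMGA2 transcript was at 16.3, 12.98 and 14.9 TPM in Dokana against 7.99, 8.63 and 8.16 TPM in Djasinga. Its log2 difference of -0.76 (SE 0.19) as deposited had the smallest adjusted p among the 17 transcripts tested (limma adjusted p 0.150). After scaling the difference of this transcript was -0.44 (limma adjusted p 0.442). As deposited, 0 of the 17 transcripts passed the adjusted threshold, beside 1.03% of the 22561 transcripts tested in all. An unadjusted p under 0.05 was found for 4 (limma), beside 14.5%, and 4 did not overlap between the lines, beside 24.2%.

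**Figure D3:**
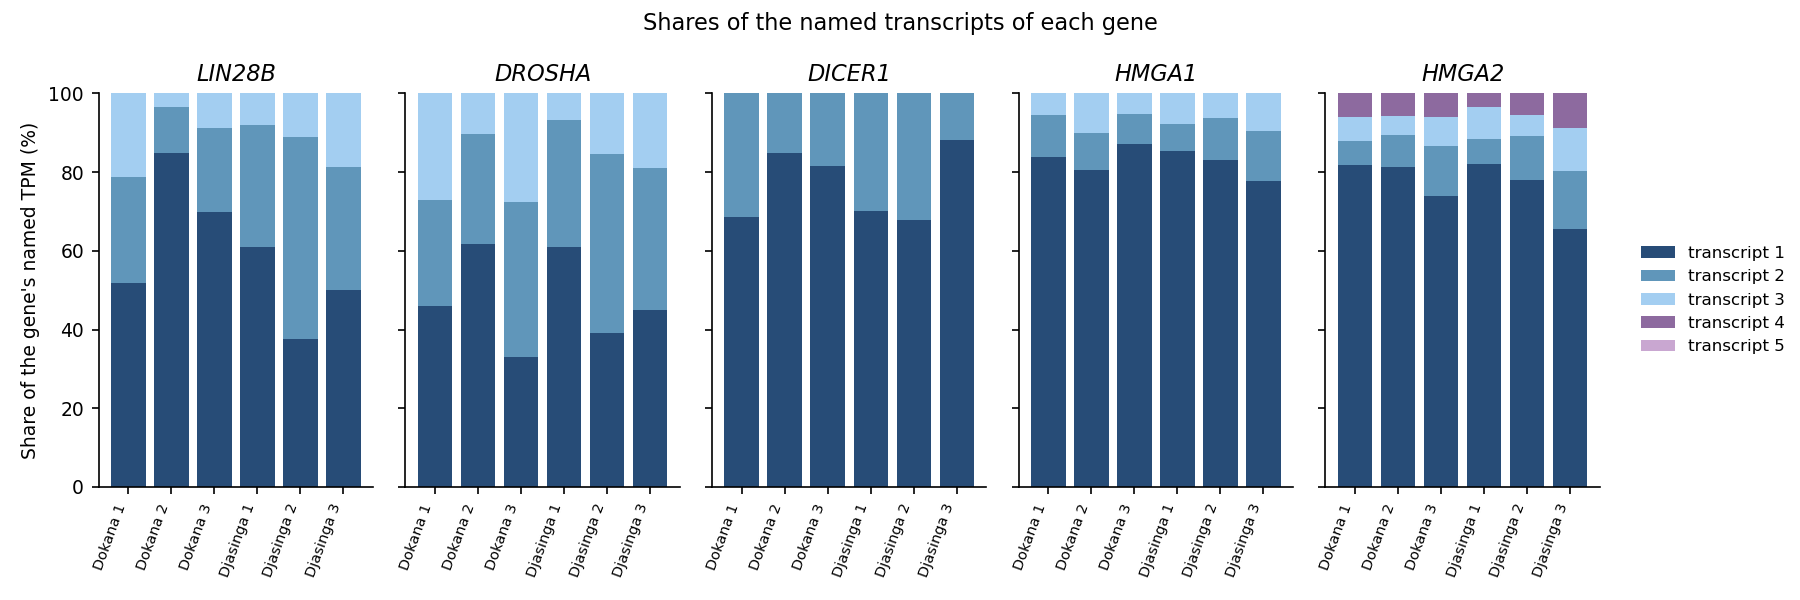
Share of each gene's named TPM (%) held by its named transcripts, ordered by mean level, in the 6 libraries; bars sum to 100%. The leading LIN28B transcript ranges from 37.5% to 84.9%, and the leading HMGA1 transcript from 77.9% to 87.1%.

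In the wider pathway no gene passed the test between the lines. Of 28 genes of the let-7 axis and microRNA biogenesis, 17 were paired with a transcript and 15 were tested. Of these 0 passed the threshold in either direction, and 4 had an unadjusted p under 0.05 (limma), all lower in Djasinga: HNRNPA1, AGO1, DICER1 and RAN. Over all genes the share lower at that level was 13.9%. The list's median log2 difference was -0.38 as deposited and -0.03 after scaling, when 1 gene, DROSHA, had an unadjusted p under 0.05, beside 7.26% of all genes. The double-stranded RNA editor ADAR had the highest difference of the list, at 3.43, 5.97 and 7.87 TPM in Dokana and 4.66, 7.08 and 5.94 TPM in Djasinga (log2 difference 0.07, limma adjusted p 0.882).

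Of 29 let-7 targets 16 were paired and 15 tested, of which 0 passed the threshold and 2, HMGA2 and DICER1, had an unadjusted p under 0.05 (limma) and were lower in Djasinga. This share is near the 13.9% of all genes, and after scaling 0 of the 15 had such a p. DICER1 and LIN28B are let-7 targets themselves and stand in both lists. The median log2 difference of the targets was -0.35 as deposited and -0.08 after scaling. The 3 highest were HMGA1, MYCN and IGF2BP2. MYCN, a growth regulator of early cells, was at 42.4, 47.0 and 60.1 TPM in Dokana against 33.6, 34.4 and 53.0 TPM in Djasinga. IGF2BP2, an mRNA-binding protein that stabilises its targets, was at 44.5, 48.3 and 51.8 TPM in Dokana against 44.2, 31.8 and 30.2 TPM in Djasinga. IGF2BP1 and IGF2BP3 had no transcript paired with their symbol. TGFBR1, a receptor of the TGF-beta family, was at 13.8 ± 3.48 and 9.33 ± 0.894 TPM (SD, n = 3).

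**Figure D4:**
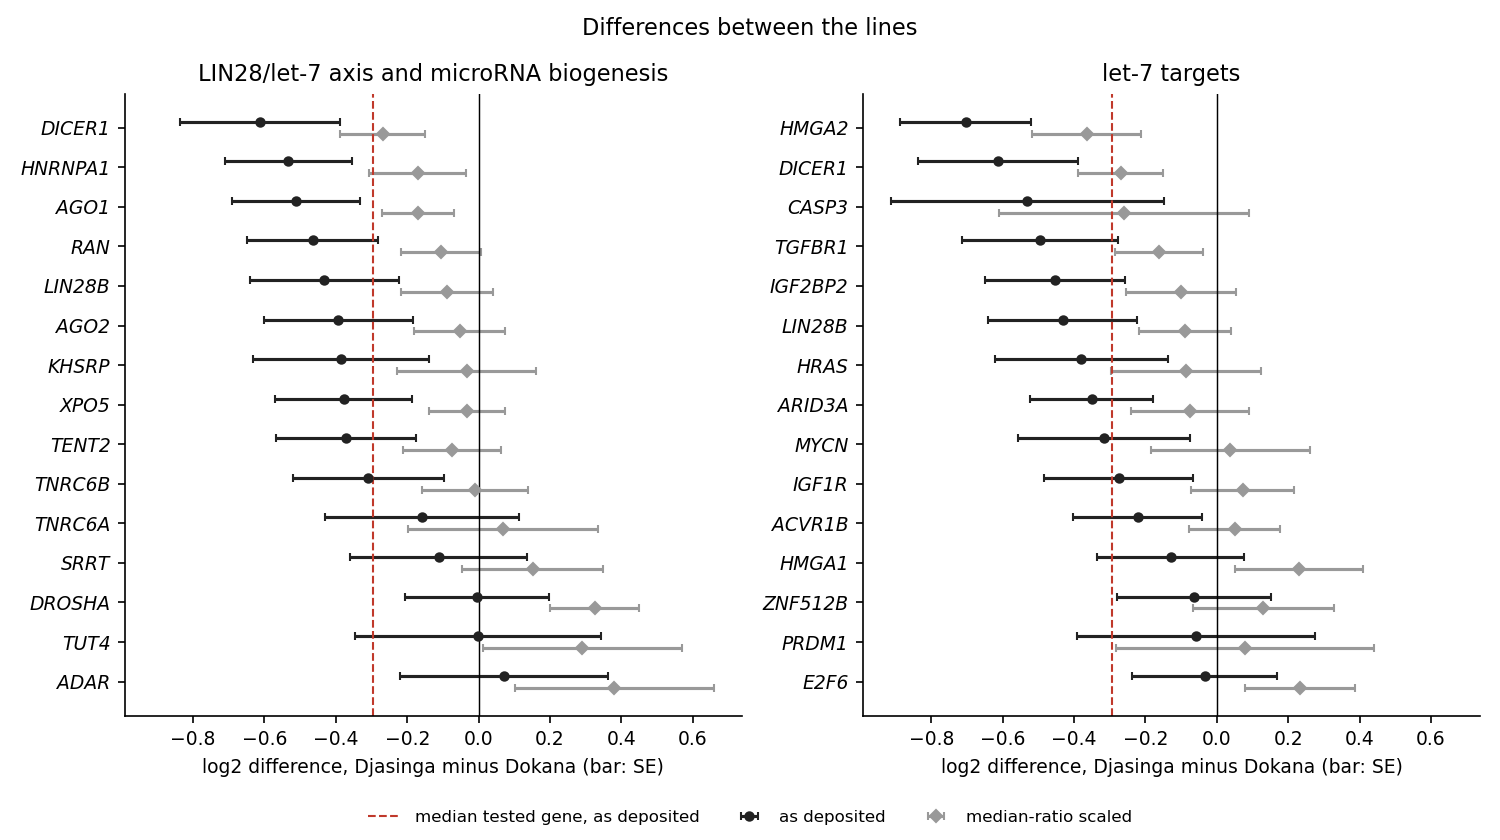
Log2 difference between the lines for the 15 tested genes of the let-7 axis and microRNA biogenesis (left) and the 15 tested let-7 targets (right), with SE bars, as deposited (black) and after median-ratio scaling (grey). Many black points lie near the dashed line at -0.29, the median of all genes tested. Of the 7 genes DROSHA and HMGA1 lie to its right, and HMGA2 and DICER1 lie farthest to its left. ADAR and TUT4 lie right of DROSHA in the left panel, and E2F6, PRDM1 and ZNF512B lie right of HMGA1 in the right panel.

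Relatives of HNRNPA1 and of the HMGA genes place these genes within their families. HNRNPA1 was the highest of the 12 hnRNP genes with a paired transcript. HNRNPC, which binds nascent transcripts, came next at 281 ± 34.4 TPM in Dokana and 212 ± 11.7 TPM in Djasinga, followed by HNRNPU, a scaffold protein of the nucleus, at 143 ± 29.9 and 109 ± 29.2 TPM. HNRNPA3, another member of the A/B group, was at 80.4 ± 24.2 and 45.6 ± 14.999 TPM. Of 11 hnRNP genes tested 0 passed the threshold and 3 had an unadjusted p under 0.05 (limma), all lower in Djasinga, beside 13.9% of all genes. After scaling 0 of the 11 had such a p, and the median log2 difference was -0.41 as deposited and -0.05 after scaling.

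Among 6 high-mobility-group genes with a value, HMGN1, a nucleosome-binding protein, was the highest, at 317, 243 and 357 TPM in Dokana against 167, 185 and 180 TPM in Djasinga. The lines did not overlap, and the log2 difference of HMGN1 was -0.77 (SE 0.19, limma adjusted p 0.258) as deposited and -0.41 (limma adjusted p 0.509) after scaling. HMGB1, an abundant DNA-bending protein, was at 182 ± 47.3 and 129 ± 31.6 TPM, and HMGB3 at 42.4 ± 8.90 and 27.4 ± 7.22 TPM (SD, n = 3). HMGB2 had no transcript paired with its symbol. Of the 6 genes 0 passed the threshold and 3 had an unadjusted p under 0.05 (limma), namely HMGN1, HMGA2 and HMGB3, all lower in Djasinga, beside 13.9% of all genes. After scaling 1 of the 6 had such a p, beside 7.26% of all genes. The family's median log2 difference was -0.55 as deposited and -0.20 after scaling.

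Genes whose scaled levels ran most like LIN28B over the 6 libraries were SRSF10, YWHAB, GPRC5C, MYH10 and NREP, with Pearson r of 0.986 to 0.993 among 2401 candidate genes. They were picked as the highest of these and the 6 points come from only 2 lines, so the values describe these libraries only. The median r of the candidates was 0.12. As deposited, and so not on the scale used for r, SRSF10, a splicing factor, was at 26.8, 17.5 and 33.6 TPM in Dokana against 13.8, 16.4 and 21.8 TPM in Djasinga. For HMGA2 the genes most alike were HNMT, EIF2B3, POLE4, MYMX and GRTP1, with Pearson r of 0.951 to 0.971. HNMT, which inactivates histamine, was as deposited at 10.1, 7.18 and 10.1 TPM in Dokana against 1.53, 4.01 and 5.04 TPM in Djasinga (log2 difference -1.24, limma adjusted p 0.283).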

How the data were processed

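Per the labels' protocols, RNA was extracted with Direct-zol columns and DNase, and stranded total RNA libraries were made. The submitters' processing notes name STAR, StringTie, FastQC 0.11.9 and Trimmomatic 0.39 without roles. The sources used here give no quantifier, genome build or annotation release. Per the file headers the deposited unit is TPM of single transcripts, scaled by the authors to the same total in every library, which keeps no depth.

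Transcripts were paired with symbols, version dropped, through the RefSeq table of assembly NHGRI_mPonAbe1-v2.0, used for names only. This named 22112 of 43705 RefSeq accessions (50.6%), and TPM was summed per symbol. Genes that reached 1 TPM in 3 or more libraries were tested with limma-trend on log2(TPM + 1), Djasinga minus Dokana, calling Benjamini-Hochberg adjusted p under 0.05; such fold changes understate low genes. The fit was tested on simulated data. It missed part of the smallest changes simulated, which were larger than any difference of the 7 genes. A gene that did not pass the threshold is therefore not shown to be unchanged. Within-library ratios were compared by exact permutation. The labels give the replicate number under a batch tag, so a fit with it as a block was run as an alternative; whether same-numbered passages of the lines were handled together is not stated, and the deviations of same-numbered libraries from the line means correlated by only -0.0930, -0.130 and 0.152, which does not show a pairing. The rule for named genes covered the 7 genes and their transcripts, fixed family and complex relatives, the 3 highest of each list, called list members, and the 5 genes most like LIN28B or HMGA2 among those with a mean of at least 5 TPM. Members and lists were chosen with earlier results of these data known, and SRRT, the GW182 genes, ADAR, TGFBR1, CNOT1, CNOT7 and DCP2 were described after their values were seen. One gene of the let-7 target list is not reported here and was left out of that list. Alternatives covered scaling, filters, pseudocount, limma settings, gene class, block and single libraries. R 4.3.3, limma 3.58.1, Python 3.11.15, pandas 2.3.3, numpy 2.4.6, scipy 1.17.1 and matplotlib 3.10.9 were used.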

Additional observations from a re-analysis of the deposited data

How the results depend on the processing

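Of 140 log2 differences of the 7 genes under alternative settings, 0 passed the threshold (limma) and 16 changed sign, all in DROSHA and HMGA1, whose deposited differences were the nearest to 0 of the 7; the cause was not tested. Under median-ratio scaling, quantile normalization and without the most abundant transcript DROSHA was at 0.32, 0.32 and 0.26 and HMGA1 at 0.23, 0.20 and 0.15. Scaling with the replicate block gave 0.32 and 0.23, scaling with protein-coding genes alone 0.33 and 0.24, and scaling without Djasinga replicate 3 gave 0.38 and 0.076, the last pair of settings chosen after seeing the data. Leaving out 1 library gave -0.11 to 0.15 for DROSHA and -0.26 to 0.010 for HMGA1, and -0.60 to -0.27 for LIN28B, -0.81 to -0.62 for HMGA2, -0.77 to -0.41 for DICER1, -0.67 to -0.46 for HNRNPA1 and -0.50 to -0.23 for AGO2, the last value without Dokana replicate 3. Of 48 ratio differences 3 changed sign, all with the leading transcript alone (LIN28B to DICER1 -0.23, LIN28B to HMGA2 -0.10, HNRNPA1 to LIN28B 0.40). Leaving out 1 library kept HMGA1 to HMGA2 at 0.47 to 0.77 and DICER1 to DROSHA at -0.76 to -0.57, and gave -0.17 to -0.02 for HNRNPA1 to LIN28B, 0.13 to 0.30 for LIN28B to DICER1, 0.23 to 0.41 for LIN28B to HMGA2 and 0.16 to 0.33 for AGO2 to DICER1.

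The count of genes past the threshold was 22. It was 5 with the replicate block, 1 with the block and median-ratio scaling, 10 with a pseudocount of 0.1, 48 among protein-coding genes alone and 3 among these after scaling. Leaving out 1 library gave 7 to 23. Requiring the accession version left 1400 genes, none of the 7 among them, and 0 calls (135 at an unadjusted p under 0.05, limma), so this setting gives no value for the 7 genes or their ratios. For transcripts the count of 232 became 152 with the block, 107 with a pseudocount of 0.1, 99 without a filter, 100 with 1 TPM required in all 6 libraries, and 100 to 211 with 1 library left out. The replicate block changed no call of the 7 genes and no ratio (sign-change p 0.25 at the smallest, which is the lowest 3 pairs allow). The depth is unknown, so how far counting error limits the low transcripts cannot be given.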

Other observations

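After AGO2 acts, a microRNA-bound message can lose its tail and cap. Of 17 genes listed for these steps, 11 were paired with a transcript, and RNA of each of these was found in both lines. CNOT1 and CNOT7 had the highest means of them. CNOT1, the scaffold of the CCR4-NOT deadenylase, was at 50.9, 43.0 and 63.8 TPM in Dokana against 40.3, 38.9 and 32.4 TPM in Djasinga, and its catalytic subunit CNOT7 at 46.6, 40.6 and 57.7 TPM and at 37.6, 32.6 and 34.3 TPM. As deposited, neither overlapped between the lines, beside 24.5% of all genes that lay lower in Djasinga without overlap, and neither passed the threshold (limma adjusted p 0.336 for each). After scaling the lines overlapped for CNOT1 and not for CNOT7, beside 7.1% of all genes lower without overlap. DCP2, the decapping enzyme, was at 9.45, 7.57 and 12.6 TPM in Dokana against 11.5, 8.09 and 8.25 TPM in Djasinga, with overlap. After scaling all its Djasinga libraries lay above all Dokana libraries, beside 6.19% of all genes. The scaled log2 difference of DCP2 was 0.26 (limma adjusted p 0.824). Of 11 tested genes of deadenylation and decapping 0 passed the threshold and 1, CNOT7, had an unadjusted p under 0.05 (limma), beside 13.9% of all genes lower at that level. Their median log2 difference was -0.34 as deposited and -0.04 after scaling, beside -0.29 and -0.0032 for all genes tested.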
